A study of Mus musculus with 12 samples.

Results

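Tight junction transcripts were compared between normal intestine and tumors of Min/+ mice. The genes were 5 claudins (Cldn1, Cldn2, Cldn3, Cldn4 and Cldn7) and 3 of their partners: Ocln (occludin), F11r (junctional adhesion molecule A) and Tjp1 (zonula occludens protein ZO-1). They were chosen by name, and the platform annotation assigned them 11 of the 12488 probe sets on the array, that is, 8 of 8252 named genes. Of these, 6 genes with 7 probe sets passed the filter on dim probe sets. Cldn1 and Cldn2 did not and were examined in a separate fit of every probe set.

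The animals were male, 91 days old and carried the Min mutation of Apc on 1 allele (Min/+), which gives rise to intestinal adenomas, in every group. The 6 combinations of diet and genotype, made of 3 numbered diets and of animals heterozygous (Dnmt+/-) or wild type (Dnmt+/+) for a DNA methyltransferase gene, were each represented by 1 normal intestine array and 1 tumor array. This gave 12 Affymetrix MG_U74Av2 arrays, 6 per tissue, and a shared sample code tied the normal to the tumor array of each combination. The labels give neither the make-up of the diets nor the number of the Dnmt gene, and do not say whether a code is a single animal, so the tests rest on the scatter among these arrays alone, some of it possibly technical. Precision is limited by the number of arrays.

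Tight junctions seal the space between epithelial cells near their apical border. Claudins are membrane proteins whose strands set how tight the seal is and which ions pass it, so some act as barriers and others as channels. Occludin and junctional adhesion molecules lie in or beside the strands, and zonula occludens proteins tie them to the actin cytoskeleton from the cytoplasmic side. In the intestine, tightness differs between crypt and villus, and claudin levels are known to shift in inflamed and neoplastic mucosa.

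Promoter sequence was read for the genes at either end of the tumor response, Cldn4 and Cldn2, which had the larger increases, and Ocln, the 1 member that was lower. The 250 bases before the annotated transcript start (RefSeq, assembly GRCm38.p6), written 5′ to 3′ on the gene's own strand, are given for each. Cldn4 lies on the minus strand with its window at chr5:134946935-134947184, and the capitals mark matches to the AP-1 motif TGANTCA. The Cldn2 window is chrX:139800558-139800807 on the plus strand, and its capitals mark a CDX motif and a TATA box. The Ocln window is chr13:100552499-100552748 on the minus strand, the more downstream of 2 annotated starts, with a GC box in capitals.
Cldn4: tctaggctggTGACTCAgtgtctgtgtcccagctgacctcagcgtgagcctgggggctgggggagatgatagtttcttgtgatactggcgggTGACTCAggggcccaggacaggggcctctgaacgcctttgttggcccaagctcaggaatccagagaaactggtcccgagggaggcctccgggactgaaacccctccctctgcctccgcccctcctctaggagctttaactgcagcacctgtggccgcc
Cldn2: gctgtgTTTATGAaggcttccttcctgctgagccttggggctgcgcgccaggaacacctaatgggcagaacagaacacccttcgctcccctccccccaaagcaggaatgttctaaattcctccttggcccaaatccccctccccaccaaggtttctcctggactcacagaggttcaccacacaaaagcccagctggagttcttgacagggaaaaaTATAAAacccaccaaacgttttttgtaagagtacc
Ocln: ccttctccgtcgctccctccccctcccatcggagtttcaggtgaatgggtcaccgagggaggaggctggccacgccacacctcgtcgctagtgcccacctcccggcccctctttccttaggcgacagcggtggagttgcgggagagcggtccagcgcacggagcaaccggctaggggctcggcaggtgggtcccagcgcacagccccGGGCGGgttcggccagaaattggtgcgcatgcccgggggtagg

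The Cldn4 window held 2 copies of TGACTCA, starting 240 and 158 bases before the transcript start, and 1 TCF/LEF form, CTTTGTT, 123 bases before it. The AP-1 motif occurred in 6.75% and the TCF/LEF motif (CTTTG followed by any pair of A or T) in 14.8% of the 32851 windows of the same length from 27025 genes, both strands searched. The Cldn2 window held TTTATGA, 244 bases before the start, and TATAAA, 35 bases before it. The CDX motif (TTTATGA, or the same with TG as its last letters) was found in 7.31% and TATAAA in 12.4% of all windows. Over the 10 windows of the 8 genes, the GC box GGGCGG was present in 8, against 32.7% of all windows, and the E-box CACCTG, recognised by Snail repressors, in 4, against 17.2%. The only other AP-1 match was 1 TGAGTCA in F11r, and the grainyhead motif AACCNGTT, present in 1.79% of all windows, matched 0 of the 10. None of the matches named for Cldn4, Cldn2 and F11r overlapped another. These matches describe the letters of the windows and were not tested as sites.

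The tissue comparison asked which of these transcripts differ between tumor and normal intestine. All 6 tested genes passed the threshold (adjusted p under 0.05): Cldn4, Cldn3, Cldn7, F11r and Tjp1 were higher in tumor, and Ocln was lower. With median scaling or with deposited values, Cldn4, Tjp1 and Ocln kept their calls and Cldn3, Cldn7 and F11r did not, with Cldn7 and F11r on the other side of 0 under median scaling. Over all 6400 features tested, 35.2% were called, 18.2% higher and 16.9% lower, so a call by itself was common on these arrays. The median difference of the 6 genes was 0.39 on the log2 scale, against 0.0015 for all features. The size of the difference set the 6 tested genes apart from each other, from 4.43-fold for Cldn4 to 1.22-fold for F11r. In bulk tissue, a change in the share of cells that make a transcript and a change in transcript per cell cannot be told apart.

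**Figure D1:**
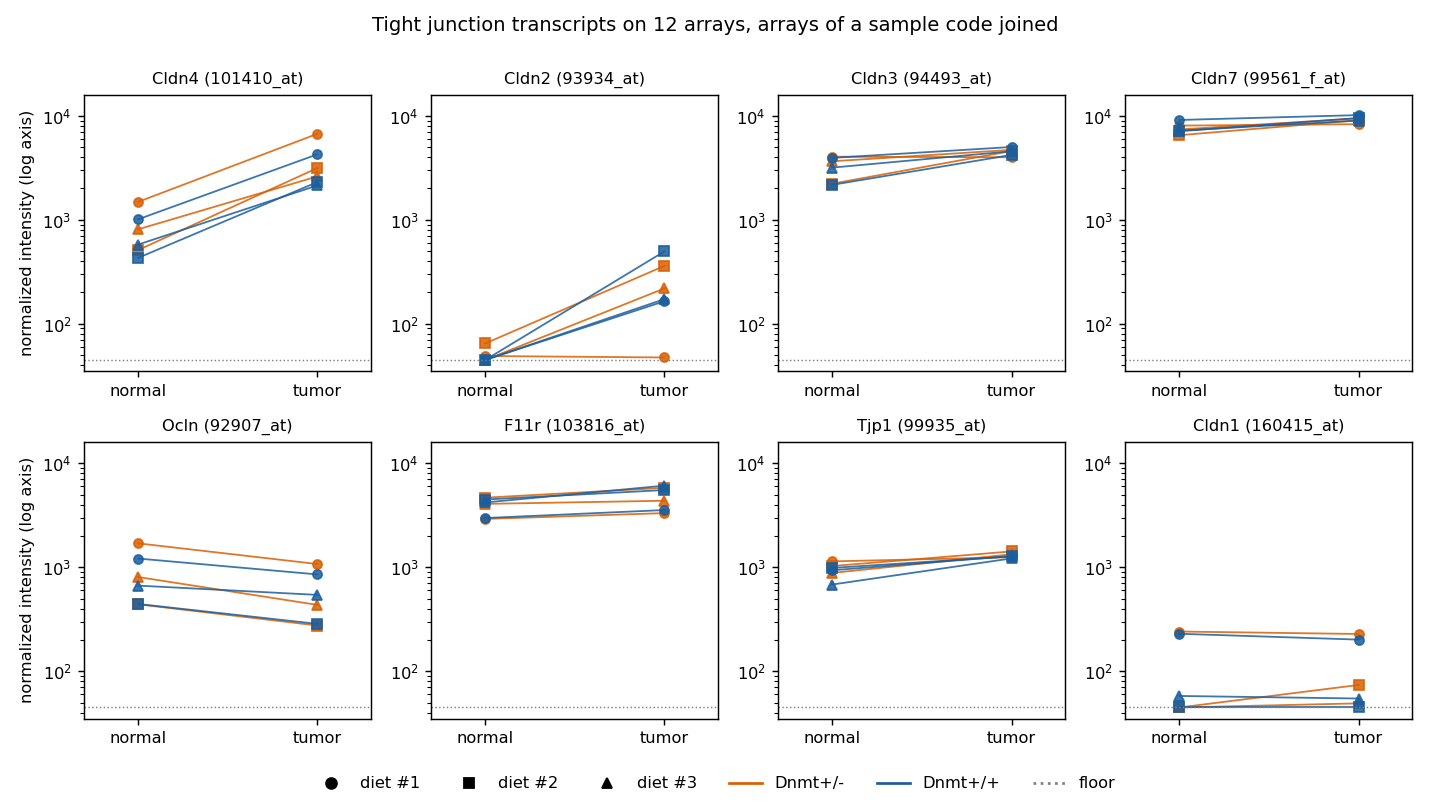
Normalized intensity (log axis) of 1 probe set for each of the 8 genes in normal intestine and tumor, with the 2 arrays of a sample code joined, symbols for the diet and colours for the Dnmt genotype; the dotted line is the floor of 44.8. All 6 lines rise for Cldn4 and fall for Ocln, while Cldn2 leaves the floor in 5 of 6 tumors and Cldn1 stays near it outside diet #1.

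Cldn4, a claudin that tightens the barrier against cations and binds Clostridium perfringens enterotoxin, changed most of the 6 tested genes (probe set 101410_at). Its normalized intensity ran from 429.6 to 1484 in normal intestine, with a median of 692.6. In tumor it ran from 2139 to 6707, with a median of 2879. The lowest tumor array therefore lay above the highest normal array, as it did for 6.17% of all features. Within sample codes the tumor was higher by 4.52-fold and 4.22-fold on diet #1, by 6.16-fold and 5.37-fold on diet #2 and by 3.23-fold and 3.71-fold on diet #3, Dnmt+/- first in each case. The fitted difference was 2.15 ± 0.13 (log2, SE, n = 6 arrays per tissue), or 4.43-fold, with a limma adjusted p of 6.12e-06. It passed the threshold in all 27 alternative settings, with differences from 1.51 to 2.30.

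Cldn3, a barrier-forming relative and the other enterotoxin receptor, is the neighbour of Cldn4 on chromosome 5. The 2 genes lie 39279 bases apart with 0 protein-coding genes annotated between them, but they differed in size of response. Cldn3 (94493_at) ranged from 2166 to 4039 in normal intestine (median 3411) and from 3990 to 5009 in tumor (median 4573), so the groups overlapped by 1 diet #1 pair in which the tumor was not higher. The fitted difference was 0.54 ± 0.14 (log2, SE), 1.45-fold, with a limma adjusted p of 0.016 and a rise in 5 of 6 codes. By diet, the tumor exceeded normal by 1.12-fold on diet #1, 2.00-fold on diet #2 and 1.36-fold on diet #3. The 2 diet #2 normal arrays had the lowest values, 2222 and 2166, and without the diet #2 arrays the difference was 0.31 and lost its call (adjusted p = 0.16).

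The same diet #2 normal arrays carried exocrine pancreas transcripts. The summed intensity of 8 pancreas genes was 202723 and 218505 there, at most 26360 in the other normal arrays and 23431 to 26819 in tumor. Its part in the Cldn3 difference was not tested. The call was also lost with each array scaled to the same median (0.25, adjusted p = 0.17) and with deposited values (0.48, adjusted p = 0.063). A second Cldn3 probe set, 162315_f_at, was higher in 5 of 6 codes by a fitted 0.49 ± 0.20 (log2, SE), and did not pass (limma adjusted p = 0.13 over every probe set).

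Cldn7, a claudin found along the basolateral membrane of enterocytes that associates with EpCAM, was measured by a probe set whose suffix marks probes shared within a gene family (99561_f_at). It ranged from 6501 to 9113 in normal intestine (median 7290) and from 8299 to 10151 in tumor (median 9264), with overlapping groups. The tumor was higher in 6 of 6 codes, as for 17.4% of all features. The fitted difference was 0.30 ± 0.090 (log2, SE), 1.23-fold, limma adjusted p = 0.029. This difference was small enough to depend on scaling: with each array set to the same median it was -0.083, with deposited values 0.15 (adjusted p = 0.46), and neither was called. Of the 12 single arrays, leaving out any of 8 ended the call (adjusted p up to 0.075). It held without either diet #1 normal array, the diet #1 Dnmt+/- tumor or the diet #3 Dnmt+/+ tumor.

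Cldn2 forms a channel for cations and water and is normally found in crypts. Its probe set, 93934_at, was too dim to pass the filter, yet rose clearly in most pairs. Its increase cannot be ranked against that of Cldn4, since most normal arrays are at a floor, but on diets #2 and #3 the floored folds were 7.87 and 4.34, against 5.75 and 3.46 for Cldn4. In deposited intensity, Cldn2 went from 63.1 in normal intestine to 522.5 in tumor for diet #2 Dnmt+/- and from 28.3 to 712.1 for diet #2 Dnmt+/+. On diet #3 it went from 29.9 to 304.1 for Dnmt+/- and from 36.2 to 226.7 for Dnmt+/+. On diet #1, where the files stop at 50, the Dnmt+/+ pair went from 50 to 82.5 and both Dnmt+/- arrays were listed at 50. Normal arrays were thus dim and 5 of 6 tumors were above every normal array.

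After normalization, 5 of 6 normal arrays and 1 of 6 tumor arrays lay at a floor, and the tumor median was 195.5. In the fit of every probe set without the filter, where 19.5% of 12422 probe sets were called, and 10.1% called higher, the Cldn2 difference was 2.00 ± 0.40 (log2, SE), with a limma adjusted p of 0.0084. Because most normal values are at a floor, the size depends on where the floor is set: it was 1.13 with the floor at the 40th percentile. Without the diet #3 arrays it was 1.84 and missed the threshold (adjusted p = 0.059).

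Cldn1, a barrier claudin that is a known target of Wnt signalling in colorectal cancer cells, gave little signal. Probe set 97546_at lay at a floor on all 12 arrays. Probe set 160415_at read 201 to 241 on the 4 diet #1 arrays and 23.8 to 73.8 on the 8 others, with 3 normal and 1 tumor array at the floor. Its tissue difference was 0.084 ± 0.14 (log2, SE, limma adjusted p = 0.79), up in 2 codes, down in 3 and equal in 1. The direction is not settled: it was -0.044 with the floor at the 40th percentile and -0.058 without diet #2.

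Ocln, an integral membrane protein of the strand that regulates its assembly, was the 1 member lower in tumor (92907_at). Its median normalized intensity was 735.6 in normal intestine (440.0 to 1698) and 488.2 in tumor (275.1 to 1073). The tissues overlapped, with the diet #1 arrays the highest in each tissue. Within each code the tumor was lower in 6 of 6, as for 17.4% of all features. The log2 difference was -0.58 on diet #1, -0.66 on diet #2 and -0.59 on diet #3. The fit gave -0.61 ± 0.11 (log2, SE), 1.53-fold lower, limma adjusted p = 0.0025. With tissue as the only term, which leaves the diet differences in the error, the call was lost (adjusted p = 0.40).

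F11r, an immunoglobulin-family adhesion molecule of the junction that also acts in leukocytes and platelets, rose least (103816_at). Its median was 4133 in normal intestine (2916 to 4664) and 4944 in tumor (3316 to 6092). Like 17.4% of all features, it was higher in tumor in 6 of 6 codes, by 0.28 ± 0.090 (log2, SE), 1.22-fold, limma adjusted p = 0.035. With median scaling the difference was -0.062, with deposited values 0.17 (adjusted p = 0.32), and the call was lost without any 1 of 10 of the 12 arrays (adjusted p up to 0.086). It held without the diet #1 Dnmt+/- normal array or the diet #3 Dnmt+/- tumor array.

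Tjp1, the scaffold that binds claudin tails and links them to actin, was higher in every tumor than in any normal array (99935_at). The same held for 6.17% of all features. Normal values ran from 681.9 to 1138 (median 959.9) and tumor values from 1216 to 1419 (median 1276). The difference was 0.48 ± 0.097 (log2, SE), 1.39-fold, limma adjusted p = 0.0047, and was largest on diet #3 (1.64-fold, against 1.23-fold on diet #1 and 1.34-fold on diet #2). Without the diet #3 arrays it was 0.34 and missed the threshold (adjusted p = 0.066). The second probe set, 162298_r_at, lay at a floor on 5 of 6 arrays of each tissue and gave -0.022 ± 0.071.

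**Figure D2:**
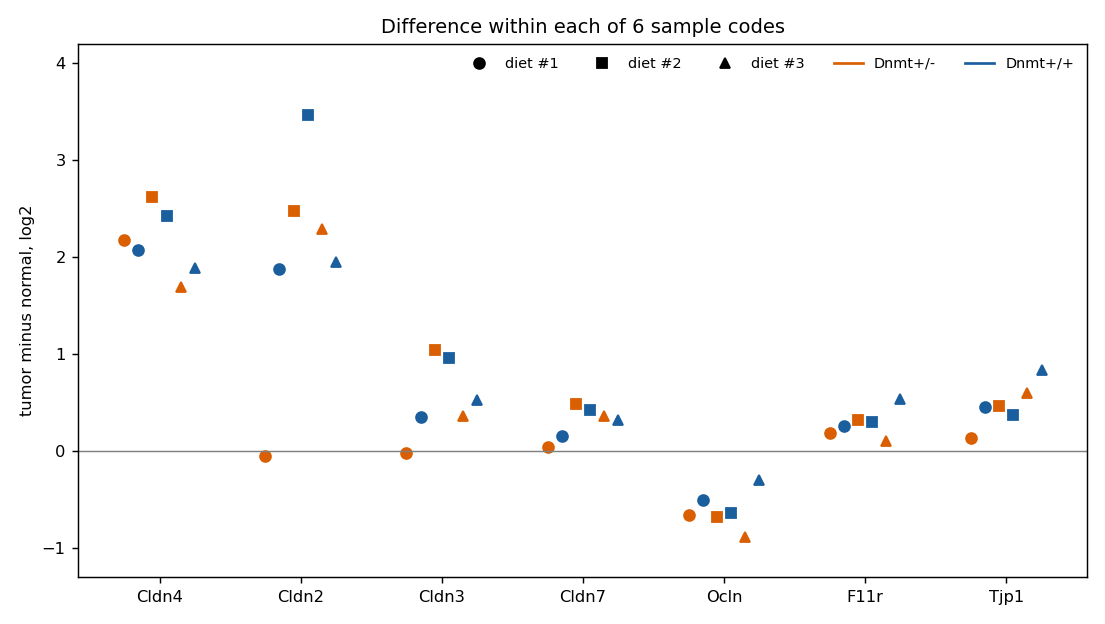
Tumor minus normal intestine (log2) within each of the 6 sample codes for 7 genes, with symbols for the diet and colours for the Dnmt genotype. Cldn4 lies between 1.69 and 2.62 in every code and Ocln below 0 in every code, whereas Cldn2 spans -0.047 to 3.47 because its diet #1 Dnmt+/- pair was at the file floor.

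Markers of cell types were read on the same arrays. Over all features, 18.2% were called higher and 16.9% lower. Of 9 tested markers of epithelium, 4 rose and 0 fell, none lay at a floor on any array, and their summed intensity was 52283 to 63345 in normal intestine and 87428 to 93172 in tumor. Of 10 stromal markers, 6 rose and 0 fell, with sums of 6831 to 9262 against 11290 to 14646. Of 8 enterocyte markers, 1 rose and 3 fell, with overlapping sums (94875 to 152220 and 94038 to 121472). When every array was shifted to a common mean of the epithelium markers, a setting chosen after seeing the data that moved the median of all features to -0.63, Cldn4 was still higher (1.51 ± 0.11, limma adjusted p = 7.19e-06). Tjp1 was then -0.16 and Cldn3 -0.097, neither called, while Cldn7 (-0.34), F11r (-0.35) and Ocln (-1.25) were called lower. Of all 6400 features, 4407 were then called lower and 248 higher. That common mean was raised mostly by the keratins Krt18 (5.67-fold), Krt19 (2.22-fold) and Krt8 (1.78-fold), whereas 5 of the 9 markers, among them Epcam (1.17-fold) and Cdh1 (1.04-fold), were not called. The median of the 9 was 0.32 (log2), below the unshifted differences of Cldn3 and Tjp1. How far epithelial content accounts for any of these differences, that of Cldn4 among them, was not tested.

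**Figure D3:**
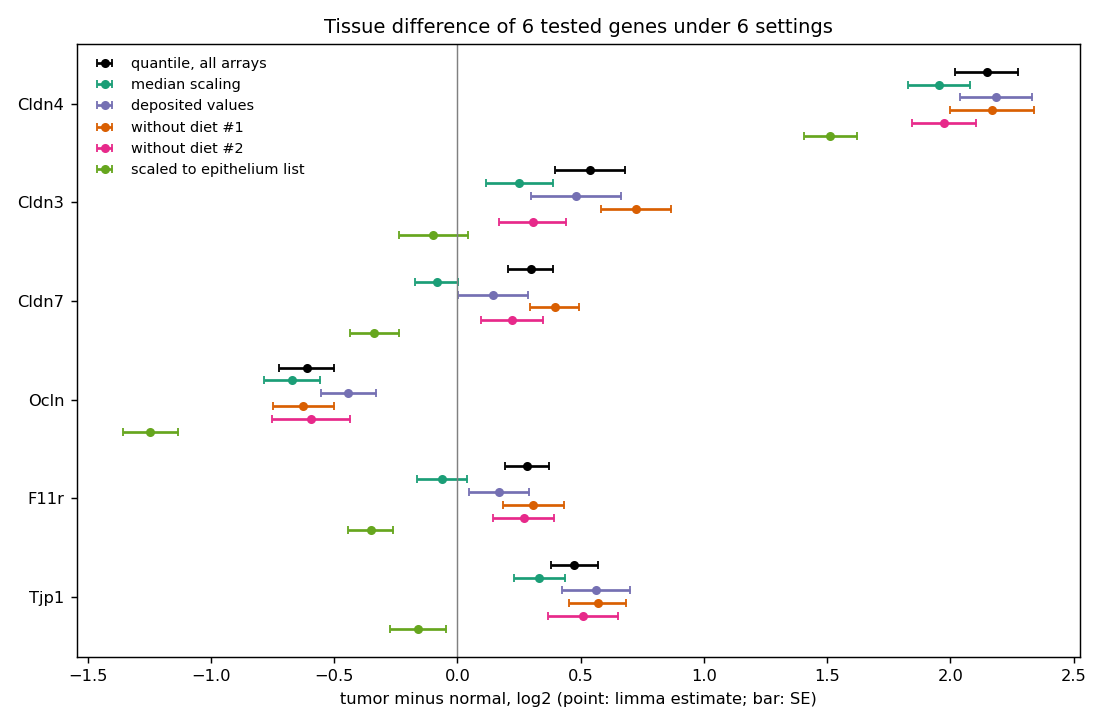
Tissue difference (log2, point) with its SE (bar) for the 6 tested genes under 6 settings of scaling or of arrays used. Cldn4 stays above 1.51 and Ocln below -0.44 throughout, while Cldn7 and F11r cross 0 with median scaling, and these and Cldn3 and Tjp1 cross it when scaled to the epithelium markers.

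Other components of the apical junction were set beside the members from lists of known genes. Over all 6400 features, 18.2% were called higher and 16.9% lower, the share to hold beside each count. Of 36 other tight junction genes, 11 had a probe set and 6 were tested; 2 rose, 0 fell and the median was 0.19. Scaled to the epithelium markers, 0 rose and 4 fell, where 4407 of all 6400 features were called lower and 248 higher. The 2 were Ybx3, a transcription factor that binds ZO-1 (1.82-fold, limma adjusted p = 0.00037), and Lsr, which builds tricellular contacts (1.76-fold, limma adjusted p = 0.0003). Of 7 tested polarity and scaffold genes, Llgl1 and Dlg1 of the basolateral polarity module rose (1.35-fold and 1.24-fold) and Prkcz, an atypical protein kinase C, fell (1.34-fold lower), with a median of -0.026. With median scaling Llgl1 (0.25) and Dlg1 (0.18) were not called, and with deposited values Prkcz (-0.28) was not. Scaled to the epithelium markers, 0 of the 7 polarity and scaffold genes rose and 6 fell, beside the same 4407 of 6400 features called lower.

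Desmosome genes rose together, though less so under other scalings. All 9 tested members of the desmosome list were called higher, against 18.2% of all features, with a median of 0.51 (log2). Pkp1, a plakophilin of the desmosomal plaque, was 2.34-fold higher, the desmosomal cadherin Dsg2 1.99-fold and the plakin Ppl 1.86-fold. Of 12 tested adherens junction genes, 7 rose and 1, Nectin3, fell, with a median of 0.33. The actin cross-linker Actn1 was 2.38-fold higher, Jup (plakoglobin, shared with desmosomes) 1.55-fold and Vcl (vinculin) 1.47-fold. Of 4 tested gap junction genes, the connexin Gja1 rose 1.47-fold and the connexin Gja5 fell 1.31-fold. In the fit of every probe set, second probe sets of Nectin3 (0.034), Vcl (0.58), Gja1 (0.52) and Pkp1 (1.19) were not called. Those of Actn1 and Dsg2 were called higher. With median scaling, 4 of 9 desmosome genes rose and 0 fell (median 0.33), while 3 of 12 adherens junction genes rose and 3 fell (median 0.028). Over all 6406 features, median scaling called 847 higher and 1551 lower. Scaled to the epithelium markers, 3 desmosome genes rose and 2 fell, and 1 adherens junction gene rose and 6 fell. That setting called 248 of all 6400 features higher and 4407 lower. Pkp1, Dsg2, Ppl and Actn1 were called higher under each of these scalings and with deposited values, where Gja5 (-0.18) was not called. Among the junction genes tested outside the member list, none had a difference as large as that of Cldn4.

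**Figure D4:**
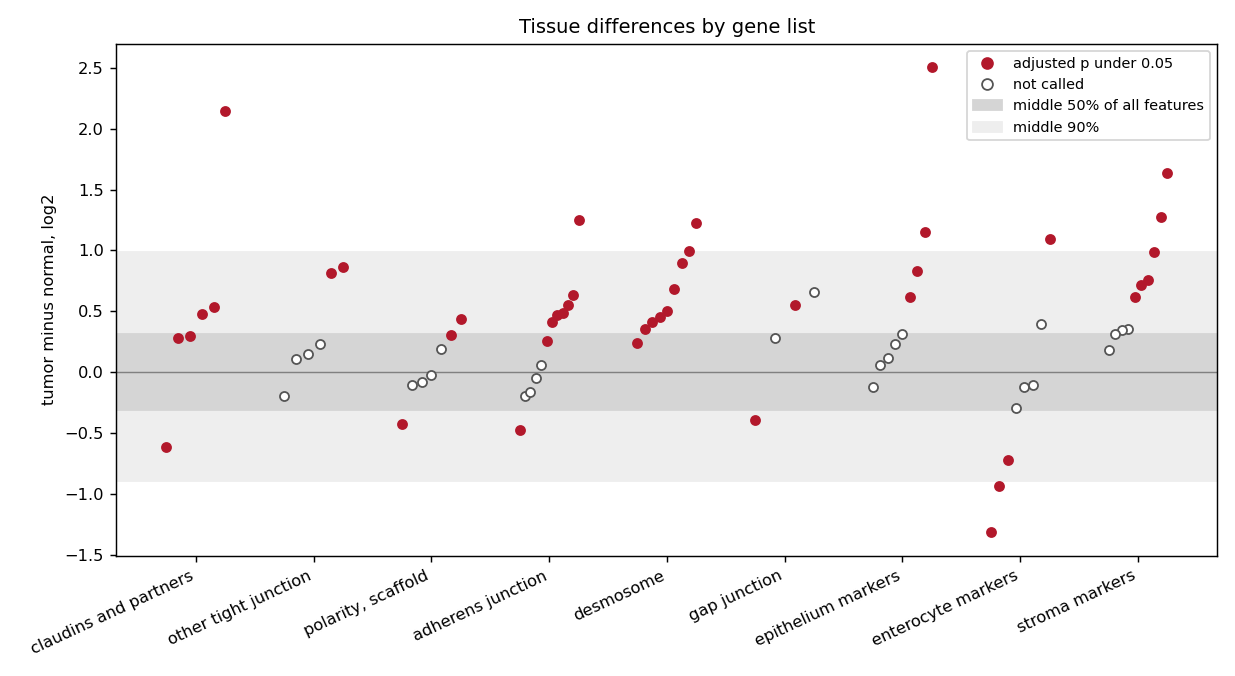
Tumor minus normal intestine (log2) of each tested gene in 9 lists, filled where the adjusted p is under 0.05; the grey bands hold the middle 50% and 90% of all 6400 features. Cldn4, at 2.15, is above every point of the 5 other junction lists, and all 9 desmosome genes are filled and above 0, against 4 of 9 with median scaling.

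The profile over the 12 arrays was compared between genes by the root mean square difference of gene-centred log2 values. Cldn4 was nearest to Sh3bgrl2 (0.30), Ptpro (0.31) and Marcksl1 (0.43), against a median of 1.32 over all other named genes. Ocln was nearest to Plin2 (0.22), Zkscan5 (0.23) and Pfkm (0.25), against a median of 0.94. The tissue and diet differences shared by all arrays enter this measure.

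The genotype comparison asked whether transcripts differ between Dnmt+/- and Dnmt+/+ animals. None of the 6 tested genes was called (limma with sample code as a block), 1 of 6 had an unadjusted p under 0.05, and over all features 3 of 6400 (0.0469%) were called. That 1 was Cldn4, with 0.45 ± 0.11 (log2, Dnmt+/- minus Dnmt+/+, SE), unadjusted p = 0.0027 and adjusted p = 0.64. Cldn4 was higher in Dnmt+/- in all 6 matched comparisons, by 1.47-fold, 1.19-fold and 1.40-fold in normal intestine and by 1.57-fold, 1.36-fold and 1.22-fold in tumor for diets #1, #2 and #3. These come from only 3 pairs of codes. The differences of the other 5 genes lay between -0.093 (Cldn7) and 0.16 (Tjp1).

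The tissue difference did not pass the test for a dependence on genotype in any of the 6 genes (0 of 6400 features were called, and 0 of the 6 had an unadjusted p under 0.05). For Cldn4 the 2 genotypes differed in it by 0.033 ± 0.28 (log2, SE, adjusted p = 1.00 by limma). The test for a dependence of the tissue difference on diet called 1.48% of features and 0 of the 6 genes. Cldn3 (limma unadjusted p = 0.015, adjusted p = 0.24) and Cldn4 (unadjusted p = 0.022, adjusted p = 0.27) came nearest. Cldn2 was called in that test with median scaling and with deposited values, but not in the fit of every probe set, where 2.17% were called.

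Between diets, only #2 and #3 could be compared on a common scale. The deposited values of diet #1 had a mean of 306 to 403 per array and held 50 for 40.9% to 46.0% of probe sets, whereas each array of the others had a mean of 1000. Ocln was 1.69-fold higher on diet #3 than on diet #2 (0.76 ± 0.12, log2, SE, limma adjusted p = 0.011). Ocln read 440.0 and 443.3 in the diet #2 normal arrays and 805.3 and 665.8 in those of diet #3. In tumor it read 275.1 and 285.2 against 434.4 and 542.1. It was the 1 of 6 genes called, against 9.28% of all features (5.69% higher on diet #3), and the call was lost with deposited values (0.71 ± 0.15, adjusted p = 0.093), where 6 of 6396 features were called. It was called with each single array left out, while the number of features called then ran from 154 to 931. The diet #2 normal arrays are those with the raised pancreas sum, whose part in this difference was not tested.

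Over all 3 diets, an F test called Cldn4, Ocln and F11r, among 61.9% of all features. With deposited values the call for Cldn4 was lost. In normalized intensity, Cldn4 and Ocln were higher on diet #1 than on both other diets in each tissue, and F11r was lower. Diet #1 and its file format cannot be told apart.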

How the data were processed

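RNA of 6 normal intestine and 6 tumor samples was hybridised to single-colour Affymetrix arrays, per the labels. The authors deposited linear intensity values, 1 per probe set; which program summarised the probes is not stated in those labels. Diet #1 arrays carry a floor at 50 and no common scaling. After removal of 66 control probe sets, intensities were quantile normalized, raised to the 20th percentile (44.8) and log2 transformed. The dimmest 40% of probe sets by mean were dropped and each gene was represented by its brightest, leaving 6400 features.

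Tissue was tested with limma 3.58.1 (R 4.3.3) on tissue, diet and genotype; genotype, diet and interactions used the sample code as a random block. P-values were adjusted by Benjamini-Hochberg over all features, with a threshold of 0.05. Members, lists and tests were chosen with earlier results of these data known. Every probe set of the members is named, and from each junction list the 3 called genes with the largest difference, plus the 3 nearest profiles of the members with the largest rise and fall. On data simulated for the tissue fit, 52.2% of 1.5-fold and 93.9% of 4-fold changes were recovered, and 12 of 158 calls were false. For the genotype fit, 26 of 184 calls were false.

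The sample codes come from the titles. Deviations from tissue means correlated at 0.46 to 0.68 within codes, and at -0.57 to -0.38 after diet and genotype were removed, which the fit itself pushes below 0, so this check cannot tell whether codes pair arrays beyond shared diet and genotype. The within-code correlation in the block fits was -0.16 for genotype and diet; a negative value tightens tests between codes. No 2 arrays of a tissue correlated above 0.987. Alternatives were other scalings, floors, filters, priors and blocks, diets left out and single arrays left out. A further 2 were added after the data were seen: shifting arrays to the epithelium markers, and every probe set without the filter.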

Additional observations from a re-analysis of the deposited data

Results flagged for a closer look

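Within groups of 6 arrays, 3 of 20 groups held an array whose gap to the nearest of the others exceeded Dixon's 95% critical value. All 3 had 1 array above a floor and the others tied at it, which fixes the ratio at 1. The usual rate of about 1 in 20 by chance therefore does not apply to them. Cldn2 (93934_at) in normal intestine was above the floor on the diet #2 Dnmt+/- array alone (64.5), which made the gap equal to the whole range (ratio 1) when the other arrays, at the floor of 50 in the files or at the floor of the normalized values, are counted as equal. Tjp1 (162298_r_at) was above the floor on 1 array of each tissue, the diet #3 Dnmt+/+ normal array (56.1) and the diet #3 Dnmt+/- tumor array (52.9), each with a ratio of 1. With the normalized values left as they are at the file floor, the ratios are 0.76 for Cldn2 and 0.61 (normal) and 0.66 (tumor) for Tjp1, of which the Tjp1 normal array no longer exceeds the critical value.

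Probe sets outside the tested set also carried signal in tumor. Cldn2, removed by the filter, had a tumor median of 195.5 against a normal median at the floor. The second Cldn3 probe set, 162315_f_at, left out because a brighter one stood for the gene, had a tumor median of 349.6 and a normal median of 246.1.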

How the results depend on the processing

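Cldn4 passed the tissue threshold in all 27 alternatives, and Ocln in 26 of 27. The number of member genes called for tissue was 6 of 6 tested, beside 2251 of 6400 features. It was 2 of 6 with tissue as the only term (Cldn4 and Tjp1), where 1083 of 6400 features were called. Without diet #2 it was 3 of 7 (Cldn4, Ocln and Tjp1), beside 1365 of 6417 features. Without diet #3 it was 2 of 8 (Cldn4 and Ocln), beside 1253 of 6415 features. It was 4 to 6 with single arrays left out, beside 1889 to 2180 features. With median scaling and with deposited values it was 4 of 7, beside 2398 of 6406 and 2087 of 6396 features. Cldn4, Ocln and Tjp1 kept their calls in both, and Cldn3, Cldn7 and F11r did not. The other call was Cldn2, which passed the filter in both, though 5 of 6 normal arrays lay at a floor in the main processing. With the replicate block, which takes the sample code as a fixed block, 6 were called, as without it. Fits with no replicate block left the member counts for genotype, diet and the interactions as they were. Over all features they moved the calls from 3 to 1 for genotype, 3961 to 3508 for diet, 594 to 274 for diet #3 against #2 and 95 to 83 for tissue by diet, the within-code correlation being -0.16. With single arrays left out, these ran from 0 to 2, 3516 to 4122, 154 to 931 and 44 to 331.

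Tissue differences turned sign for Cldn1 (-0.044 with the 40th percentile floor, -0.058 without diet #2), for Cldn7 and F11r with median scaling (-0.083 and -0.062), and with arrays shifted to the epithelium markers for Cldn3 (-0.097), Cldn7 (-0.34), Tjp1 (-0.16) and F11r (-0.35). Median scaling moved the median of all features to -0.099 and deposited values to 0.13. The split of all calls into higher and lower was 1167 and 1084, with median scaling 847 and 1551, with deposited values 1358 and 729, and with the epithelium shift 248 and 4407.

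For genotype, with 0 called in every alternative, signs turned for Cldn1 (-0.034 without diet #2), Cldn3 (-0.039 median scaling, -0.12 deposited values, -0.0078 without diet #2, -0.036 without diet #3, -0.050 within tumor, and -0.056 to 0.12 with single arrays left out), Ocln (-0.027 without diet #1, -0.012 within tumor), F11r (0.0044 without diet #3) and Cldn2 (-0.43 to 0.17 with single arrays left out). The diet F test called 3 of 6 genes, beside 3961 of 6400 features. With deposited values it called 6 of 7, Cldn4 no longer among them, beside 5947 of 6396 features. With the 40th percentile floor it called 6 of 8, beside 4203 of 6402 features. The genes called were 3 to 5 with single arrays left out (5 without the diet #1 Dnmt+/- tumor). The 1 gene called for diet #3 against #2 became 0 with deposited values. For tissue by diet, 0 of 6 became 1 of 7 with median scaling and 1 of 7 with deposited values, Cldn2 both times. Features called in these settings were 88 of 6406 and 206 of 6396. Causes were not tested. Dim probe sets of Cldn1, Cldn2 and Tjp1 limit what can be said of them.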
